A study of Mus musculus with 16 samples.

Results

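The natriuretic peptide system was followed through 8 genes chosen by name: the peptide genes Nppa, Nppb and Nppc, the receptor genes Npr1, Npr2 and Npr3, and the processing genes Corin and Furin. They are 8 of the 56953 genes in the deposited count table. Nppa, Nppb, Npr1, Npr2, Npr3, Corin and Furin passed the filter on low counts and are 7 of the 18662 genes tested. Nppc was too low to test, with 24 reads over all 16 libraries.

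RNA was sequenced from the left ventricles of 16 Bl6J mice, males and females, with 4 mice in each of 4 groups and 1 library per mouse. WT Ctr mice were wild type and P635L Ctr mice were homozygous for P635L, an amino acid change in RBM20, which controls splicing in heart muscle; both groups received the control virus. WT Tnpo3 and P635L Tnpo3 mice had the same genotypes and received a virus with the cDNA of Tnpo3, a nuclear import receptor. Both viruses were AAV9, given by tail vein as 1e12 v.g. to mice 4 weeks old, and hearts were taken after 12 weeks, at an age of 16 weeks.

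All 16 mice therefore carried a virus, and no uninjected mice were analysed here. The control virus is not empty: pCAG-iCre-T2A-eGFP has the CAG promoter, which is active in most cell types, and encodes Cre recombinase and a green fluorescent protein. The promoter of the Tnpo3 virus and the sex of each mouse are not given in the sources used here. Values are for whole ventricle tissue, so fewer cells of a type and less RNA per cell cannot be told apart.

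Nppa encodes the precursor of atrial natriuretic peptide and Nppb that of brain natriuretic peptide; heart muscle cells secrete both when stretched, and in adult ventricles a high Nppa level is a widely used sign of cardiac stress. Corin is a membrane protease that cleaves the Nppa precursor, and Furin is a protease of the secretory pathway that cleaves the Nppb precursor among many others. The mature peptides of both genes bind the product of Npr1, a receptor that makes cyclic GMP. The product of Npr2 is the cyclic GMP-forming receptor for C-type natriuretic peptide, which Nppc encodes. The product of Npr3 binds all of these peptides and takes them out of circulation.

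Libraries held 28493249 to 85922669 counts. Levels are given as CPM, counts scaled to library size with TMM factors, and levels of different genes are compared only as CPM per kilobase (kb) of exonic length. Calls rest on edgeR's quasi-likelihood test with Benjamini-Hochberg adjustment over all genes tested, at an adjusted p under 0.05. Tnpo3 itself was at 44.8 ± 3.29 CPM in WT Ctr, 44.5 ± 2.72 in P635L Ctr, 320 ± 126 in WT Tnpo3 and 464 ± 214 in P635L Tnpo3 (SD, n = 4 each), as the labels say. The gene ENSMUSG00000119584 took over 10% of the counts in 3 libraries (WT Ctr replicates 2 and 4 and WT Tnpo3 replicate 4). Xist exceeded the Y-linked genes in 3 libraries, WT Ctr replicate 4 and WT Tnpo3 replicates 2 and 4, and in none of the 8 P635L libraries. Sex may thus be unbalanced between the genotypes, and its effect cannot be fully told apart from that of P635L. Where leaving out either set of libraries ended a call for 1 of the 7 genes, that is said beside the result. Without the ENSMUSG00000119584-rich libraries, only replicates 1 and 3 of WT Ctr remain. Without those with high Xist, only replicates 1 and 3 of WT Tnpo3 remain. Whether calls ended through the smaller number of mice was not tested. Heart muscle markers (Myh6, Tnnt2, Tnni3, Actc1, Myl2, Myl3 and Pln) summed to 53678 to 93001 CPM over the 16 libraries, so the labelled tissue had its defining markers.

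Nppa and Nppb lie next to each other on chromosome 4 and on the same strand, Nppb at 148070245 to 148071662 and Nppa at 148085179 to 148086536 in the coordinates of the count table (GRCm39 per the submitters' processing notes), with 13516 bases between them. Their promoters are shown because both genes were higher in P635L Ctr than in WT Ctr. The sequences are the 250 bases before the RefSeq start site, from RefSeq on the older build GRCm38.p6, plus strand, and capitals mark every match to the motifs named below them.
Nppa, chr4:148000472-148000721: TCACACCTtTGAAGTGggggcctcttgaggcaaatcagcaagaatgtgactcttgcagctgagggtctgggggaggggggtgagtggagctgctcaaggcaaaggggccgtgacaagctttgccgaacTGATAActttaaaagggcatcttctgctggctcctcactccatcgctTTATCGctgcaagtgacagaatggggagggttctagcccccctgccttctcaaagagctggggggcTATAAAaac
Nppb, chr4:147985650-147985899: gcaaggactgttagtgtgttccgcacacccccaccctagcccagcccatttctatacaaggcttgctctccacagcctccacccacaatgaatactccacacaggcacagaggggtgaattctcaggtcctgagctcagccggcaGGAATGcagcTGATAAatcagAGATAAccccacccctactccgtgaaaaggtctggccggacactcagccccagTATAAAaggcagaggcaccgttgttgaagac

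Counted from the start site, the Nppa window held the T-box motif TCACACCT at −250 to −243, the NK2 element TNAAGTG at −241 to −235 and the GATA motif NGATAA at −122 to −117 and, on the other strand, at −75 to −70. It held TATAAA at −9 to −4. The Nppb window held 2 GATA matches at −95 to −90 and −84 to −79, the M-CAT motif CATTCC, bound by TEAD factors, on the other strand at −105 to −100, and TATAAA at −31 to −26. Both strands were searched in 32851 RefSeq windows of the same length. The T-box motif was in 1.12% of them, the NK2 element in 10.1%, GATA in 22.5%, M-CAT in 12.6% and TATAAA in 12.4%. The AP-1 motif TGANTCA (6.75% of windows) and the CArG box (1.47%) had no match in either promoter window. These matches describe the letters and say nothing of binding in these hearts.

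Between P635L Ctr and WT Ctr, 4 of the 7 tested genes were called changed, all 4 higher in P635L Ctr: Nppa, Nppb, Corin and Npr2. In this comparison 14.2% of all genes tested were called, 7.07% as higher and 7.14% as lower. Between P635L Tnpo3 and P635L Ctr, Nppa and Npr3 were called, both lower with the Tnpo3 virus (2 of 7, where 3.88% of all genes were called, 1.63% as higher and 2.25% as lower). P635L Tnpo3 against WT Ctr had Nppa higher and Npr3 lower (2 of 7, where 3.07% of all genes were called). P635L Tnpo3 against WT Tnpo3 had Nppa and Nppb higher and Npr3 lower (3 of 7, where 3.72% of all genes were called). These comparisons share groups and are not independent of each other.

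**Figure D1:**
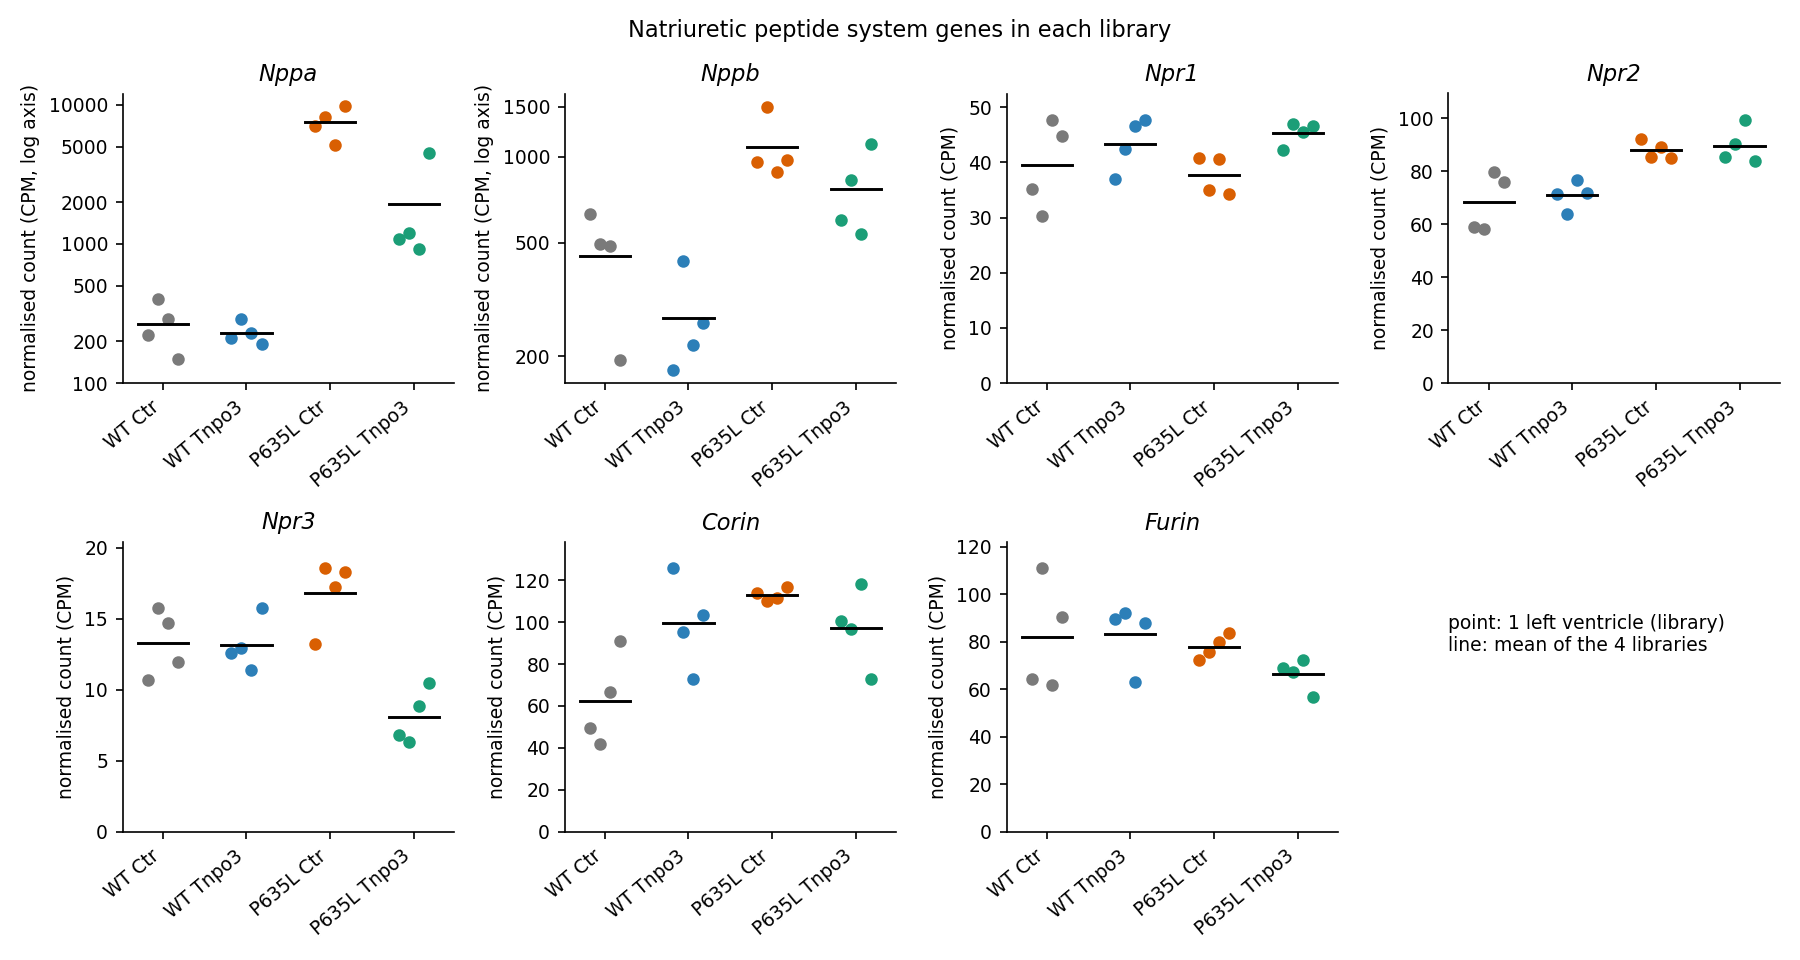
Level of each tested gene in each library, as TMM-normalised CPM on the vertical axis (log axis for Nppa and Nppb, linear from 0 for the others), by group. Each point is 1 mouse and each line the mean of 4; Nppa in the 4 P635L Ctr libraries sits between 5133 and 9799 CPM, above all other libraries.

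Nppa (ENSMUSG00000041616) was the gene of the 7 with the largest differences in the P635L groups. In WT Ctr it was at 219.9, 400.3, 289 and 148 CPM in replicates 1 to 4, and in WT Tnpo3 at 210.4, 289, 228 and 191 CPM. In P635L Ctr the values were 7090.0, 8154, 5133 and 9799 CPM. In P635L Tnpo3 they were 1094, 1198, 916 and 4506 CPM. The WT groups overlapped, every P635L Ctr library was above every other library, and every P635L Tnpo3 library lay between the WT libraries and the P635L Ctr libraries.

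The group means of Nppa were 264 ± 107 CPM in WT Ctr and 7544 ± 1956 in P635L Ctr (SD, n = 4 each), a 28.6-fold difference. The log2 fold change was 4.84 ± 0.52 (SE) with an edgeR adjusted p of 1.85e-05, and it stayed called in all 26 alternative analyses. By mean CPM per kb, Nppa ranked 177th of the 18662 genes in WT Ctr, 196th in WT Tnpo3, 5th in P635L Ctr and 21st in P635L Tnpo3. It was thus among the most abundant messages of the mutant ventricle.

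With the Tnpo3 virus in P635L hearts, Nppa fell to 1929 ± 1723 CPM (SD, n = 4), 0.256 of its P635L Ctr level. The log2 difference was −1.97 ± 0.46 (SE) with an edgeR adjusted p of 0.0277. This level was still 7.30-fold that of WT Ctr (log2 2.87 ± 0.48, edgeR adjusted p = 0.0034). It was also above WT Tnpo3 (log2 3.07 ± 0.48, edgeR adjusted p = 0.0025). The difference from WT Ctr was not called with only those groups fitted (edgeR adjusted p = 0.0631) or without the ENSMUSG00000119584-rich libraries (log2 2.96, edgeR adjusted p = 0.0750), and that from WT Tnpo3 not without the libraries with high Xist (log2 3.15, edgeR adjusted p = 0.0518). The fall held with the same sign but was no longer called in 8 of 26 alternatives. These were without the filter on low counts, with only the 2 groups fitted, or without any 1 of P635L Ctr replicates 1, 2 and 4 or P635L Tnpo3 replicates 1, 2 and 3 (edgeR adjusted p = 0.0607 to 0.0885). The fit of only the 2 groups called 2846 of 17930 genes, without Nppa (edgeR adjusted p = 0.0785). The main fit called 724 genes, and the others of these alternatives called 282 to 629.

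Replicate 4 of P635L Tnpo3 stood apart from its group. Without it the log2 difference of Nppa between P635L Tnpo3 and P635L Ctr was −2.82 ± 0.30 (SE), with an edgeR adjusted p of 7.01e-05, and that between P635L Tnpo3 and WT Ctr was 2.02 ± 0.27 with an edgeR adjusted p of 0.000667. The same mouse had the highest Nppb of the group and the lowest Tnpo3, at 234 CPM against 359, 723 and 543 in replicates 1 to 3. Whether the Tnpo3 level had a part in its Nppa level was not tested. The test of whether the virus effect differed between genotypes gave −1.77 ± 0.63 on the log2 scale for Nppa (edgeR adjusted p = 0.269), and −2.62 ± 0.38 with an edgeR adjusted p of 0.0033 without this mouse.

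Nppa is a major product of atrial muscle, so atrial markers were read beside it. Of the 6 listed, Sln reached at most 25 counts in any library, Myl7 at most 47 and Bmp10 at most 9. Bmp10 was at 0 in all P635L Ctr libraries. The summed level of the 6 atrial markers (Sln, Myl7, Myl4, Bmp10, Dkk3 and Stard10) ranged from 44.6 to 57.7 CPM in WT Ctr, 32.9 to 43.0 in WT Tnpo3, 44.9 to 53.1 in P635L Ctr and 32.1 to 37.3 in P635L Tnpo3. Among them Dkk3 was higher in P635L Ctr than in WT Ctr (log2 2.27 ± 0.39, edgeR adjusted p = 0.0009) and Stard10 lower (log2 −0.73 ± 0.16, edgeR adjusted p = 0.0052). The 3 atrial markers tested had a median log2 difference of 0.55 between P635L Ctr and WT Ctr, against −0.05 over all genes. Between P635L Tnpo3 and P635L Ctr their median was −0.73, against 0.01 over all genes, and 0 were called. The sum over the heart muscle markers was 75792 to 93001 CPM in WT Ctr and 53678 to 58008 in P635L Ctr, with 4 of 7 markers called lower (7.14% of all genes). It was 67894 to 87126 in WT Tnpo3 and 58896 to 68750 in P635L Tnpo3, above every P635L Ctr library, with 1 of 7 markers called higher than in P635L Ctr (1.63% of all genes). The part of the muscle marker level in the Nppa difference was not tested.

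Nppb (ENSMUSG00000029019) changed less than Nppa. In WT Ctr it was at 631, 493, 486.5 and 194 CPM, and in WT Tnpo3 at 179, 431, 219 and 262 CPM. In P635L Ctr it was at 957, 1501, 888 and 974 CPM, and in P635L Tnpo3 at 601, 833, 537 and 1108 CPM. P635L Ctr did not overlap WT Ctr, and P635L Tnpo3 overlapped both WT Ctr and P635L Ctr.

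The mean of Nppb was 451 ± 184 CPM in WT Ctr and 1080.1 ± 283 in P635L Ctr (SD, n = 4 each), 2.39-fold higher. The log2 fold change of 1.26 ± 0.34 (SE) had an edgeR adjusted p of 0.0220. The call was lost without the filter on low counts (edgeR adjusted p = 0.0665) and without P635L Ctr replicate 2, the highest library of its group (log2 1.08, edgeR adjusted p = 0.0676). It was also lost without the 3 ENSMUSG00000119584-rich libraries (log2 0.99, edgeR adjusted p = 0.133). With the Tnpo3 virus in P635L hearts Nppb was at 770 ± 259 CPM. This was not called different from P635L Ctr (log2 −0.49 ± 0.34, edgeR adjusted p = 0.489) or from WT Ctr (log2 0.77 ± 0.34, edgeR adjusted p = 0.241). Against WT Tnpo3, at 273 ± 111 CPM, it was 2.82-fold higher (log2 1.496 ± 0.35, edgeR adjusted p = 0.0276), a call lost in 5 of 26 alternatives. These were with high Xist as a covariate, without the filter, and without P635L Tnpo3 replicate 2 or 4 or WT Tnpo3 replicate 1 (edgeR adjusted p = 0.0601 to 0.120). Between the WT groups Nppb differed by log2 −0.72 ± 0.34, with overlap, an unadjusted edgeR p of 0.05004 and an adjusted p of 0.9999. That difference was −1.40 ± 0.31 without the libraries with high Xist (edgeR adjusted p = 0.836) and −0.98 ± 0.39 without the ENSMUSG00000119584-rich libraries (edgeR adjusted p = 0.546).

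The 2 peptide genes did not change in proportion. Per kb of exonic length, Nppb was the more abundant in WT Ctr, at 578 CPM per kb against 305 for Nppa. In P635L Ctr Nppa stood at 8721 and Nppb at 1383 CPM per kb. Within single libraries, the ratio of Nppa to Nppb per kb was 0.315, 0.733, 0.536 and 0.687 in WT Ctr and 1.06, 0.604, 0.938 and 0.659 in WT Tnpo3. It was 6.69, 4.90, 5.22 and 9.09 in P635L Ctr, and 1.64, 1.30, 1.54 and 3.67 in P635L Tnpo3.

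P635L Tnpo3 did not overlap P635L Ctr or either WT group in this ratio, while the WT groups overlapped each other. On the log2 scale the ratio was 3.54 higher in P635L Ctr than in WT Ctr, 1.75 lower in P635L Tnpo3 than in P635L Ctr (difference −1.75), and 1.79 higher in P635L Tnpo3 than in WT Ctr. Each of these differences had the smallest p that 4 against 4 libraries allow, 0.0286 (exact two-sided permutation test), which is 0.0457 when adjusted over the 8 ratio tests made. The difference between the WT groups was 0.56 (exact permutation p = 0.171, adjusted 0.196).

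**Figure D2:**
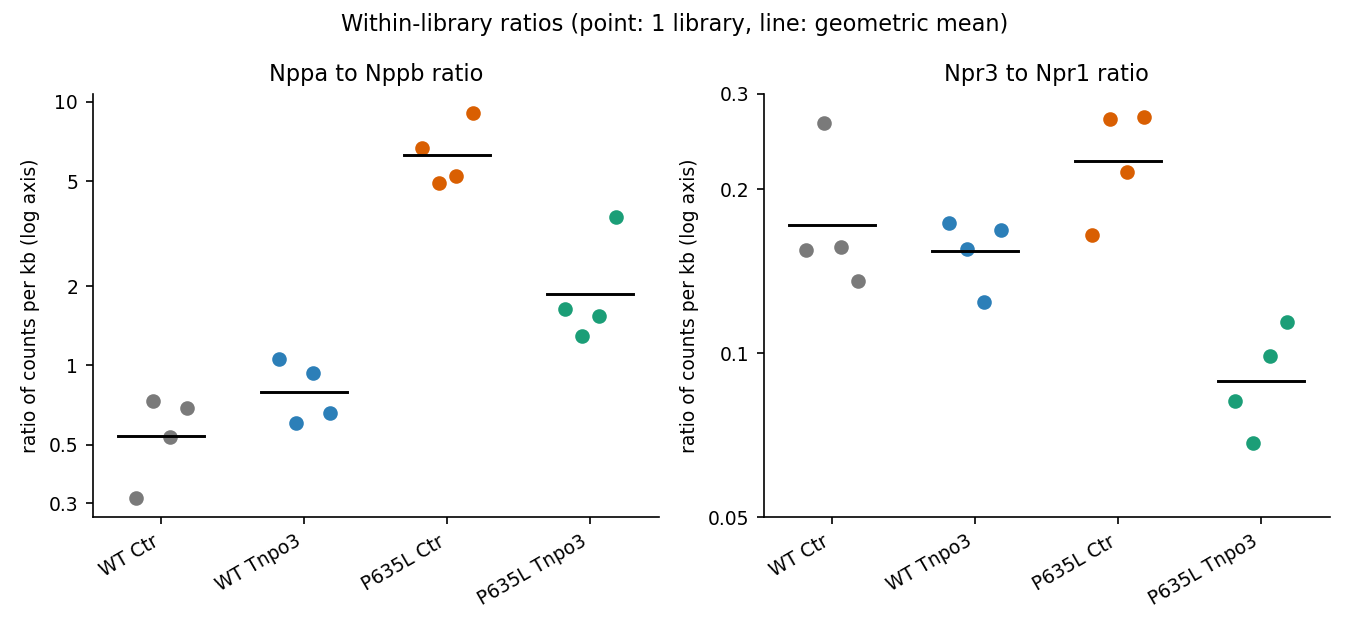
Within-library ratios of counts per kb on a log axis, Nppa to Nppb on the left and Npr3 to Npr1 on the right; each point is 1 mouse and each line the geometric mean of 4. The Nppa to Nppb ratio is above 4 in every P635L Ctr library, and the Npr3 to Npr1 ratio is lowest in the 4 P635L Tnpo3 libraries (0.0684 to 0.114).

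Nppc (ENSMUSG00000026241, chromosome 1, 86594013 to 86598293) was hardly detected. Its counts were 0, 1, 2 and 2 in WT Ctr, 0, 7, 2 and 0 in WT Tnpo3, 4, 3, 2 and 0 in P635L Ctr, and 0, 0, 0 and 1 in P635L Tnpo3. A difference between groups was not detectable at this depth. The RNA for the ligand of the Npr2 receptor was therefore near the limit of detection in tissue where Npr2 RNA was well expressed. The peptide itself was not measured.

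Npr2 (ENSMUSG00000028469, chromosome 4, 43631935 to 43651244) was the receptor gene called higher in P635L Ctr than in WT Ctr. Npr3 had a difference of like size there that was not called (log2 0.34 ± 0.17, edgeR adjusted p = 0.196). Npr2 was at 59.1, 58.3, 79.9 and 75.8 CPM in WT Ctr and at 92.1, 85.4, 89.2 and 84.9 CPM in P635L Ctr, without overlap. In WT Tnpo3 the values were 71.2, 63.9, 76.7 and 71.8 CPM, and in P635L Tnpo3 85.3, 90.3, 99.5 and 83.7 CPM. All 8 P635L libraries were above all 8 WT libraries. The size was small: 1.29-fold between P635L Ctr and WT Ctr (log2 0.36 ± 0.11, edgeR adjusted p = 0.0378), and the call was lost in 8 of 26 alternatives, namely with only these groups fitted, without any 1 P635L Ctr library or WT Ctr replicate 1 or 2, and without the ENSMUSG00000119584-rich libraries (edgeR adjusted p = 0.0629 to 0.106). Between the P635L groups it was not called (log2 0.03 ± 0.11, edgeR adjusted p = 0.929). P635L Tnpo3 against WT Ctr gave log2 0.39 ± 0.11 with an edgeR adjusted p of 0.0677. The adjusted p was 0.0114 with DESeq2, and in edgeR 0.0489 with upper-quartile factors, 0.0331 with WT Ctr replicate 3 left out and 0.0368 with the high-Xist libraries left out.

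Npr3 (ENSMUSG00000022206, chromosome 15, 11839982 to 11907373), the clearance receptor, was the receptor gene that fell with the Tnpo3 virus in P635L hearts. It was at 10.7, 15.7, 14.7 and 12.0 CPM in WT Ctr, 12.6, 12.9, 11.4 and 15.8 in WT Tnpo3, and 13.2, 18.5, 17.2 and 18.3 in P635L Ctr. In P635L Tnpo3 it was at 6.78, 6.31, 8.83 and 10.5 CPM. Every P635L Tnpo3 library was below every other library, and the other 3 groups overlapped.

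The mean of Npr3 was 16.8 ± 2.47 CPM in P635L Ctr and 8.10 ± 1.92 in P635L Tnpo3 (SD, n = 4 each), 0.482 of the former. The log2 difference was −1.05 ± 0.17 (SE) with an edgeR adjusted p of 0.0019, and it stayed called in all 26 alternatives (log2 −1.20 to −0.94). Npr3 in P635L Tnpo3 was also below WT Ctr (log2 −0.71 ± 0.17, edgeR adjusted p = 0.0306) and WT Tnpo3 (log2 −0.70 ± 0.17, edgeR adjusted p = 0.0313). Those calls were lost in 10 and 9 of 26 alternatives. Against WT Ctr these were only the groups fitted, the rich libraries out, the libraries with high Xist out, or 1 left out of P635L Tnpo3 replicates 1 to 3, WT Ctr replicates 2 and 3, P635L Ctr replicate 2 and WT Tnpo3 replicate 2 (log2 −0.75 to −0.57, edgeR adjusted p = 0.0512 to 0.154). Against WT Tnpo3 they were only the groups fitted, high Xist as a covariate, the libraries with high Xist out, or 1 left out of P635L Tnpo3 replicates 1 to 3 and WT Tnpo3 replicates 1, 2 and 4 (log2 −0.74 to −0.56, edgeR adjusted p = 0.0524 to 0.171). Between P635L Ctr and WT Ctr it was not called (log2 0.34 ± 0.17, edgeR adjusted p = 0.196). The difference in virus effect between genotypes was −1.04 ± 0.24 on the log2 scale, with an adjusted p of 0.0638 in edgeR, 0.0047 in DESeq2 and 0.0201 in edgeR without the filter on low counts. Without P635L Tnpo3 replicate 4 the edgeR adjusted p was 0.0231, and without WT Ctr replicate 2 it was 0.0425. In WT hearts the virus moved Npr3 by −0.01 ± 0.17 with TMM factors and by 0.01 with median-ratio factors.

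Npr3 is also a marker of the endocardium, the inner lining of the heart. Summed over the 5 endocardial markers (Npr3, Nfatc1, Cytl1, Hapln1 and Vwf), P635L Ctr libraries held 125 to 152 CPM and P635L Tnpo3 libraries 85.0 to 135 CPM, with 102 to 142 in WT Ctr and 95.5 to 136 in WT Tnpo3. Of the 4 tested, Npr3 itself and Cytl1 were called lower, where 2.25% of all genes were called lower (Cytl1 log2 −1.09 ± 0.26, edgeR adjusted p = 0.0262). Npr3 is part of both this sum and this count, so neither is a reading of the endocardium apart from Npr3. Of the 5 general endothelial markers (Pecam1, Cdh5, Kdr, Tek and Tie1), 0 were called between the P635L groups, where 3.88% of all genes were called. The 5 fibroblast markers (Pdgfra, Dcn, Tcf21, Lum and Col1a1) summed to 625 to 907 CPM in WT Ctr, 685 to 836 in WT Tnpo3, 1067 to 1566 in P635L Ctr and 705 to 960.2 in P635L Tnpo3, with 5 of 5 called higher in P635L Ctr than WT Ctr (7.07% of all genes) and 4 of 5 called lower in P635L Tnpo3 than P635L Ctr (2.25% of all genes). Of the other marker lists, 0 mural, lymphocyte, erythroid or adipocyte genes were called in either comparison by edgeR (14.2% and 3.88% of all genes). Of 5 macrophage genes 1 (Cd68) was called lower in P635L Ctr than in WT Ctr (7.14% of all genes). Of 3 conduction genes 1 (Cacna1g) was called higher in P635L Ctr than in WT Ctr (7.07% of all genes). Cacna1g was also called lower in P635L Tnpo3 than in P635L Ctr (2.25% of all genes). The part of any cell type's share in the Npr3 difference was not tested.

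Npr1 (ENSMUSG00000027931, chromosome 3, 90357898 to 90373173), the receptor for the Nppa and Nppb peptides, was not called in any comparison. Its lowest and highest library were 30.2 and 47.7 CPM in WT Ctr, 37.0 and 47.7 in WT Tnpo3, 34.3 and 40.9 in P635L Ctr, and 42.3 and 47.0 in P635L Tnpo3. The 28.6-fold difference of its ligand gene between P635L Ctr and WT Ctr thus stood beside a log2 difference of −0.07 ± 0.13 for the receptor gene (edgeR adjusted p = 0.778), whose sign turned when the libraries with high Xist were left out (0.03). P635L Tnpo3 and P635L Ctr did not overlap, but the log2 difference of 0.27 ± 0.13 was not called (edgeR adjusted p = 0.288). It was called when only these 2 groups were fitted (edgeR adjusted p = 0.0452), a fit that called 2846 of 17930 genes. The main fit called 724 of 18662 genes.

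The clearance receptor was read against the signalling receptor within each library. The Npr3 to Npr1 ratio per kb was 0.155, 0.265, 0.156 and 0.136 in WT Ctr, 0.174, 0.155, 0.124 and 0.168 in WT Tnpo3, and 0.165, 0.269, 0.216 and 0.272 in P635L Ctr. In P635L Tnpo3 it was 0.0816, 0.0684, 0.0988 and 0.114, below every library of the other groups. The log2 ratio differed by −1.34 between P635L Tnpo3 and P635L Ctr and by −0.95 between P635L Tnpo3 and WT Ctr, each with an exact two-sided permutation p of 0.0286 (adjusted over the 8 tests, 0.0457). P635L Ctr and WT Ctr differed by 0.39 (exact permutation p = 0.171) and the WT groups by −0.16 (exact permutation p = 0.657).

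Among the receptors, Npr2 was the most abundant per kb in every group and Npr3 the least. In WT Ctr the mean levels were 14.6 CPM per kb for Npr2, 8.26 for Npr1 and 1.41 for Npr3. In P635L Tnpo3 they were 19.2, 9.49 and 0.86. In the same units Corin was at 11.5 in WT Ctr and 21.0 in P635L Ctr, and Furin at 8.91 and 8.49. In WT Ctr the order was Nppb, Nppa, Npr2, Corin, Furin, Npr1, Npr3 and Nppc, from highest to lowest mean. The libraries of Nppb and Nppa overlapped, Nppa stood above Npr2 in every library, and Npr2, Corin, Furin and Npr1 each overlapped the next. Npr3 stood below Npr1 in every library.

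Corin (ENSMUSG00000005220, chromosome 5, 72457368 to 72661816), the protease for the Nppa precursor, was higher in P635L Ctr than in WT Ctr, as was Nppa. It was at 49.4, 41.9, 66.5 and 90.9 CPM in WT Ctr and at 114, 110.0, 112 and 117 CPM in P635L Ctr, without overlap. The means were 62.2 ± 21.8 and 113 ± 2.99 CPM (SD, n = 4 each), 1.82-fold apart (log2 0.86 ± 0.21, edgeR adjusted p = 0.0088), and the call stayed in all 26 alternatives. Corin was not called lower with the Tnpo3 virus in P635L hearts, at 101, 96.8, 118 and 73.1 CPM (log2 −0.22 ± 0.21, edgeR adjusted p = 0.633). Nor was it called between P635L Tnpo3 and WT Tnpo3, with means of 97.2 and 99.4 CPM (log2 −0.03 ± 0.21, edgeR adjusted p = 0.951). Every P635L Ctr library lay within the WT Tnpo3 range of 72.9 to 126 CPM.

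WT Tnpo3 hearts had Corin at 126, 95.3, 72.9 and 104 CPM, of which 3 of 4 exceeded all WT Ctr libraries. This log2 difference of 0.67 ± 0.21 had an unadjusted edgeR p of 0.0044 and an adjusted p of 0.9999. Between the WT groups 0 of the 7 genes were called by edgeR or DESeq2, 1 had an unadjusted edgeR p under 0.05 (Corin), and 0.00536% of all genes were called (Tnpo3 alone). P635L Tnpo3 against WT Ctr gave log2 0.64 ± 0.21 for Corin. Its adjusted p was 0.105 in edgeR and 0.0397 in DESeq2 as run here. In edgeR it was 0.0172 without WT Ctr replicate 4, the highest of its group. That library is also 1 of those rich in ENSMUSG00000119584 and with high Xist, and without all libraries with high Xist the edgeR adjusted p was 0.0252.

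Furin (ENSMUSG00000030530, chromosome 7, 80038333 to 80055184) was not called in any comparison. It was at 64.1, 111, 61.7 and 90.4 CPM in WT Ctr and 89.6, 92.2, 62.8 and 87.8 in WT Tnpo3. In P635L Ctr it was at 72.2, 75.7, 79.97 and 83.9 CPM, and in P635L Tnpo3 at 69.1, 67.1, 72.5 and 56.5 CPM. P635L Tnpo3 against P635L Ctr gave log2 −0.23 ± 0.17 (edgeR adjusted p = 0.499). The sign of its difference between P635L Ctr and WT Ctr (log2 −0.07 ± 0.17, edgeR adjusted p = 0.825) turned without the 3 ENSMUSG00000119584-rich libraries (to 0.35, with an edgeR adjusted p of 0.136), among which WT Ctr replicates 2 and 4 had the highest Furin of their group.

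**Figure D3:**
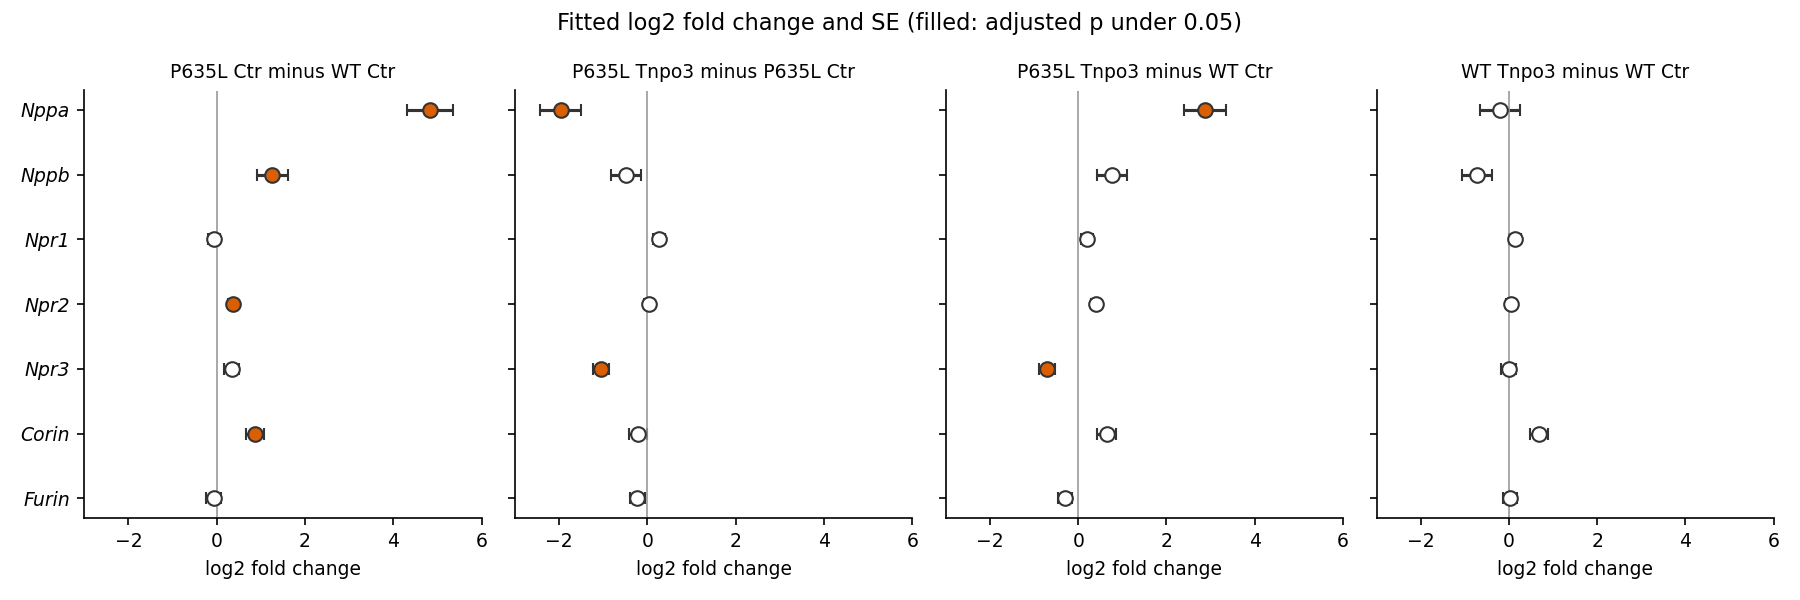
Log2 fold changes (horizontal axis) of the 7 tested genes in 4 comparisons between groups, with standard errors as bars; filled and open points mark genes called and not called by edgeR. Nppa has the largest shift between P635L Ctr and WT Ctr (4.84), and Npr3 and Nppa are the genes called lower in P635L Tnpo3 than in P635L Ctr.

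The direct test of a difference in virus effect between genotypes called 0 of the 7 genes in edgeR, where 0.504% of all genes were called. By unadjusted edgeR p, 3 genes were under 0.05 (Nppa, Npr3 and Corin), and DESeq2 called 1 (Npr3). The interaction of Corin was −0.89 ± 0.29 on the log2 scale (edgeR adjusted p = 0.214). For the genes of this system, an effect of the virus that was called in P635L and not in WT hearts was therefore not shown to differ between genotypes by the edgeR test.

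The authors' deposited table gave like values for the 2 mutant groups against WT Ctr. For P635L Ctr the authors' deposited table had log2 4.85 for Nppa (adjusted p = 7.82e-69), 1.27 for Nppb (adjusted p = 0.00018), 0.88 for Corin (adjusted p = 0.000511) and 0.38 for Npr2 (adjusted p = 0.0345), from DESeq2. For P635L Tnpo3 the authors' deposited table had 2.90 for Nppa (adjusted p = 0.00209), −0.68 for Npr3 (adjusted p = 0.0213) and 0.42 for Npr2 (adjusted p = 0.0486), from DESeq2. The Npr2 difference is thus past the threshold in the authors' deposited table (DESeq2) and not in edgeR. Corin for P635L Tnpo3 had log2 0.67 in the authors' deposited table (DESeq2 adjusted p = 0.0630), which was not past the threshold. The sign in all of these is that of the group minus WT Ctr.

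Genes that act around the peptides and their second messenger were read as a list of 21, of which 19 were tested. Between P635L Ctr and WT Ctr 2 were called higher and 2 lower, where 7.07% and 7.14% of all genes were called, with a median log2 change of −0.19 against −0.05 over all genes. Mme, which encodes the peptide-degrading enzyme neprilysin, fell from 7.26 to 1.65 CPM (log2 −2.14 ± 0.25). Pde2a, a phosphodiesterase that cyclic GMP stimulates, fell from 2.11 to 0.487 CPM (log2 −2.13 ± 0.40, edgeR adjusted p = 0.0014). Pde9a, a phosphodiesterase specific for cyclic GMP, rose from 5.53 to 9.62 CPM (log2 0.80 ± 0.19, edgeR adjusted p = 0.0078). Pcsk5, a proprotein convertase related to Furin, rose from 3.19 to 5.43 CPM (log2 0.76 ± 0.17, edgeR adjusted p = 0.0044).

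With the Tnpo3 virus in P635L hearts, 0 of these 19 genes were called by edgeR, 6 had an unadjusted p under 0.05, and DESeq2 called 4 (Mme, Dpp4, Pcsk5 and Prkg1). The median log2 change was 0.08 against 0.01 over all genes. Mme in P635L Tnpo3, at 2.67 CPM, was still below WT Ctr (log2 −1.44 ± 0.24, edgeR adjusted p = 0.0021) and WT Tnpo3 (log2 −1.39 ± 0.24, edgeR adjusted p = 0.0027). Pde3a, a phosphodiesterase that cyclic GMP inhibits, was at 38.2 CPM in P635L Tnpo3 against 60.1 in WT Ctr (log2 −0.66 ± 0.17, edgeR adjusted p = 0.0408) and 76.6 in WT Tnpo3 (log2 −1.01 ± 0.17, edgeR adjusted p = 0.0024). None of the 4 cyclic GMP effector genes (Prkg1, Prkg2, Irag1 and Vasp) was called by edgeR in any comparison. Between the WT groups 0 of 19 were called by edgeR or DESeq2, with 3 at an unadjusted edgeR p under 0.05. For the interaction 0 were called by either tool, with 5 at an unadjusted edgeR p under 0.05.

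Transcription factors known to act on the Nppa and Nppb promoters or in heart muscle were read as a list of 19, of which 18 were tested. Between P635L Ctr and WT Ctr 2 were called higher and 3 lower, where 7.07% and 7.14% of all genes were called (median log2 −0.12 against −0.05 over all genes). Hopx, a small homeodomain protein that does not bind DNA itself, fell from 267 to 3.82 CPM (log2 −6.12 ± 0.32). Tbx5, a T-box activator, fell from 22.4 to 13.7 CPM (log2 −0.71 ± 0.15, edgeR adjusted p = 0.0027), and Tbx3, a T-box repressor, from 17.2 to 13.0 CPM (log2 −0.40 ± 0.13, edgeR adjusted p = 0.0411). Tbx20, another T-box factor, rose from 39.2 to 59.5 CPM (log2 0.60 ± 0.18, edgeR adjusted p = 0.0323), and Zfp260, a zinc finger protein, from 22.9 to 33.7 CPM (log2 0.56 ± 0.10, edgeR adjusted p = 0.0013).

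Of these factors, 4 were called lower in P635L Tnpo3 than in P635L Ctr and 1 was called higher, where 2.25% and 1.63% of all genes were called (median log2 −0.14 against 0.01). Hopx rose from 3.82 to 30.9 CPM (log2 3.00 ± 0.29). Tbx20 fell from 59.5 to 28.8 CPM (log2 −1.05 ± 0.18, edgeR adjusted p = 0.0037) and Zfp260 from 33.7 to 25.7 CPM (log2 −0.39 ± 0.10, edgeR adjusted p = 0.0424). Gata4 and Gata6, the zinc finger factors that bind GATA motifs, fell from 89.5 to 57.9 CPM (log2 −0.63 ± 0.16, edgeR adjusted p = 0.0368) and from 38.8 to 26.6 CPM (log2 −0.55 ± 0.15, edgeR adjusted p = 0.0434). Against WT Ctr, P635L Tnpo3 had Hopx, Hand2 and Tbx5 lower, where 3.07% of all genes were called by edgeR. Against WT Tnpo3 edgeR called Hopx of the 18 (3.72% of all genes), and DESeq2 also called Tbx5 (adjusted p = 0.0283), Tbx20 (0.0401) and Hand2 (0.0417), all lower. In edgeR the interaction was called for Hopx (log2 3.01 ± 0.38) and Tbx20 (log2 −1.17 ± 0.26, edgeR adjusted p = 0.04998), where 0.504% of all genes were called. DESeq2 called Zfp260 as well (log2 −0.53, adjusted p = 0.0239). Between the WT groups 0 were called by edgeR or DESeq2, and 0 had an unadjusted edgeR p under 0.05. Whether any of these factors had a part in the Nppa level was not tested.

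Within 100 kb of Nppa or Nppb lie 12 other genes, of which 9 were tested. Between P635L Ctr and WT Ctr, where 14.2% of all genes were called, 2510039O18Rik was lower (45.1 to 31.8 CPM, log2 −0.50, edgeR adjusted p = 0.0089). Mfn2 (log2 −0.28), Plod1 (−0.14), Clcn6 (−0.08), Chchd2-ps (0.08), Agtrap (0.05) and Draxin (−1.19) were not called. Between P635L Tnpo3 and P635L Ctr, Gm13054 was called, and the 7 neighbours named above were not, where 3.88% of all genes were called.

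Gm13054 overlaps Nppa exons on the opposite strand and followed it, with log2 4.69 between P635L Ctr and WT Ctr and −2.14 between P635L Tnpo3 and P635L Ctr. Its counts were 0.082% to 0.397% of those of Nppa in every library. The libraries kept strand, but whether the counting used it is not stated in the sources used here, so reads of the 2 genes may be mixed. Npr1, Npr2, Npr3, Corin and Furin each overlap a gene on the other strand as well (Gm16048, Gm12473, Gm5144, Gm20647 and Gm44851), and their levels carry the same uncertainty. Nppb and Nppc overlap none.

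**Figure D4:**
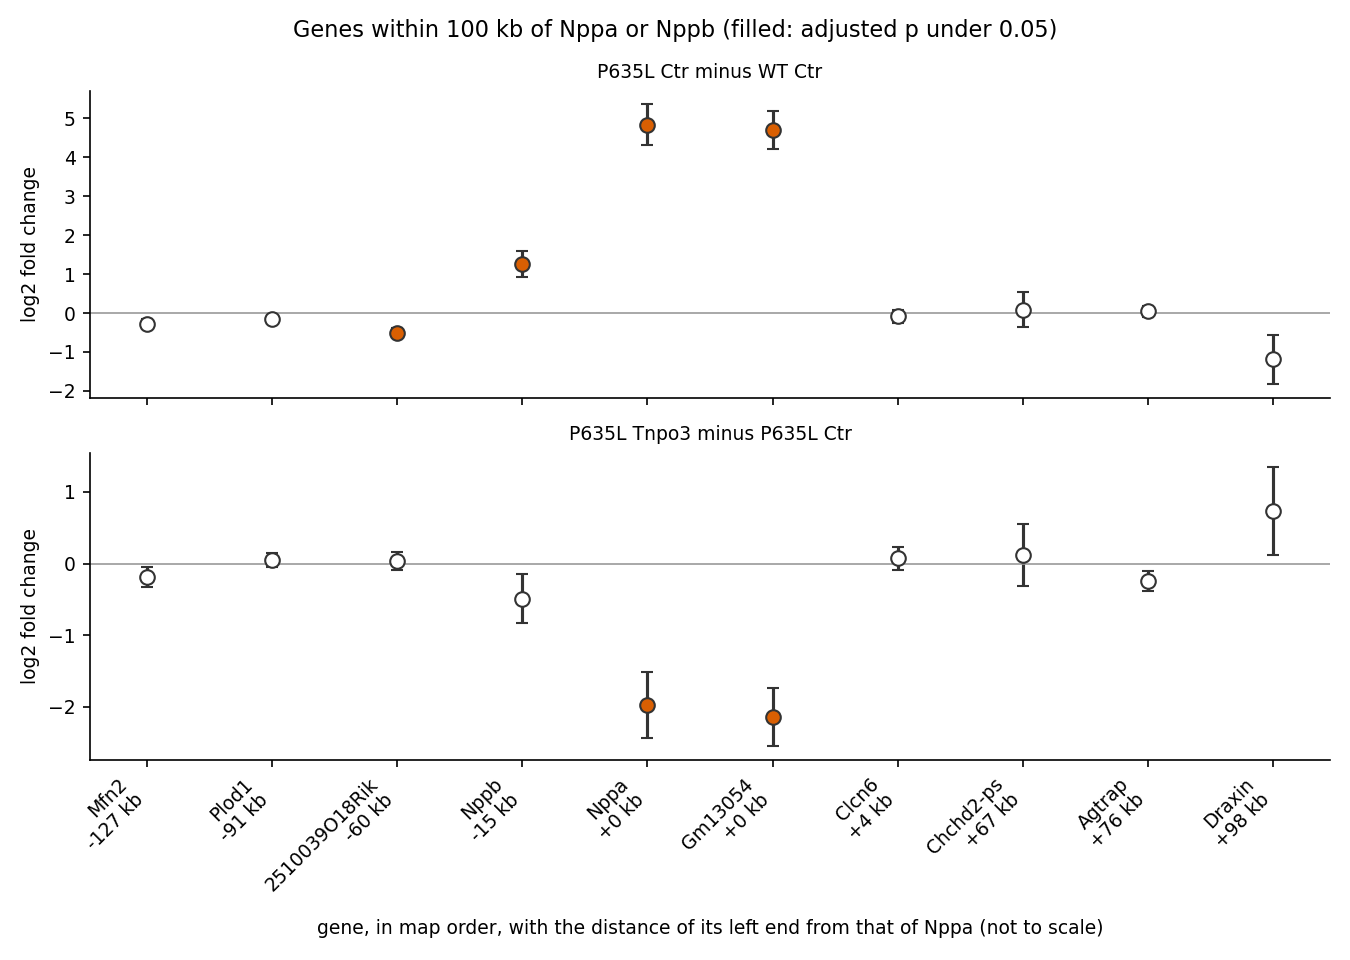
Log2 fold changes of Nppa, Nppb and 8 of the tested genes within 100 kb of them, in map order with the distance from Nppa in kb on the horizontal axis, for P635L Ctr against WT Ctr and P635L Tnpo3 against P635L Ctr; bars are standard errors. Nppa and the opposite-strand gene Gm13054 stand above the other genes in the first comparison (4.84 and 4.69).

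Genes with a pattern over the 16 libraries most like that of each member were named by Pearson's r of log2 CPM among the 12490 genes whose mean log2 CPM was 1 or more. The 16 points come from 4 groups and share their group means, so r is a description only. For Nppa they were Adamtsl2, a secreted glycoprotein (r = 0.983), Gsg1l (0.979), Gabarapl1 (0.975), Ppm1e (0.973) and the Frizzled receptor gene Fzd2 (0.972). Adamtsl2 was at 19.2 CPM in WT Ctr, 20.6 in WT Tnpo3, 175 in P635L Ctr and 70.6 in P635L Tnpo3. For Nppb they included Sergef (0.923), Tspan17 (0.919), Cda (0.916) and Itga9 (0.915), and Nppa and Nppb themselves had an r of 0.868.

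For Npr3 the nearest genes were less alike, with Asrgl1 at r = 0.878, Pdxdc1 at 0.835 and Eda at 0.825. For Npr1 they were Rasl12 (0.915), Mdm4 (0.897) and the endothelial transcription factor gene Sox17 (0.892). For Npr2 they were Cpt1c (0.927), Impact (0.923) and Kcnip3 (0.922), and for Corin Pirt (0.882), AC166575.1 (0.877) and Aph1b (0.859). For Furin they were Fgd1 (0.960), Atxn2 (0.938) and R3hdm2 (0.937).

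RBM20 is a splicing factor, so the authors' deposited rMATS tables were read for events in these genes. Events were called here at a false discovery rate (FDR) under 0.05 and an inclusion difference of 0.1 or more, if each group had 10 or more junction reads per library on average. Of the member events with enough reads, 0 of 23 were called between P635L Ctr and WT Ctr (2.52% of all events), 1 of 18 between P635L Tnpo3 and WT Ctr (2.12% of all events) and 0 of 15 between the WT groups (0.941% of all events). The single exons listed for Nppa (chromosome 4, 148085515 to 148085841) and Nppb (chromosome 4, 148070753 to 148070975) were at an inclusion of 1.

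The called event was a retained intron of Furin (chromosome 7, 80046870 to 80047741, the intron with its flanking exons). Libraries are given by their listed position, since the tables do not name them. Inclusion is the level that rMATS gives for keeping the intron, and it is not the plain share of reads. It was 0, 0.021, 0.137 and 0.06 in WT Ctr and 0.221, 0.154, 0.1 and 0.192 in P635L Tnpo3. The means differed by 0.112, with an rMATS FDR of 0.00146 in the authors' deposited table. In P635L Ctr inclusion was 0.079, 0.133, 0.239 and 0.081. Its difference of 0.079 from WT Ctr was under the size for a call (FDR 0.0202 in the authors' deposited table). In WT Tnpo3 inclusion was 0.049, 0.016, 0.043 and 0.027. The WT Ctr and both P635L groups overlapped, and the mean junction reads per library were 39.75 to 53.75.

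A retained intron of Npr2 (chromosome 4, 43643606 to 43644187) was under the size for a call. Inclusion was 0.133, 0.111, 0.15 and 0.135 in WT Ctr, 0.149, 0.229, 0.094 and 0.105 in P635L Ctr, and 0.222, 0.183, 0.203 and 0.231 in P635L Tnpo3, where all 4 libraries exceeded WT Ctr (difference 0.078, FDR 0.00244 in the authors' deposited table). In WT Tnpo3 it was 0.149, 0.111, 0.131 and 0.114. A skipped exon of Npr2 (43643335 to 43643409) had a mean inclusion of 0.732 in WT Ctr and 0.804 in P635L Ctr (FDR 0.163 in the authors' deposited table). With the Tnpo3 virus its mean was under that of WT Ctr, at 0.683 in P635L Tnpo3 (FDR 0.931 in the authors' deposited table) and 0.673 in WT Tnpo3 (FDR 0.881 in the authors' deposited table), and none of these differences was called.

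**Figure D5:**
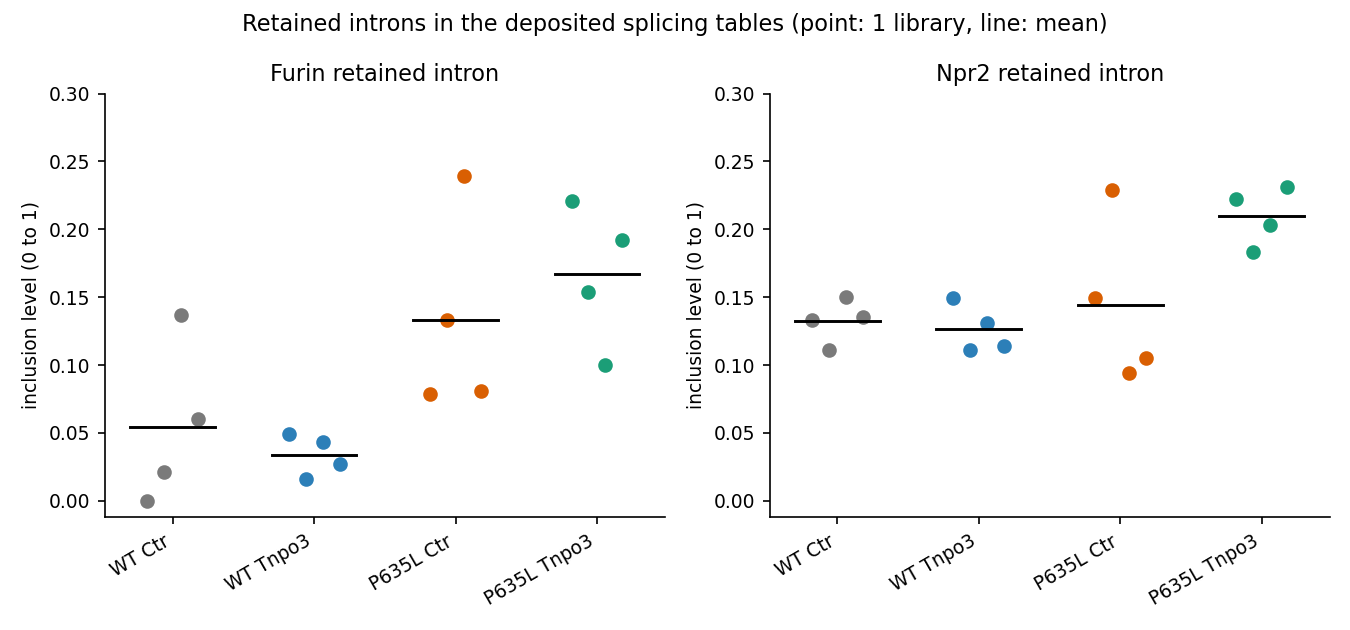
Inclusion of the retained introns of Furin and Npr2 in each library by group, from 0 (intron always removed) to 0.3, with each point 1 library and each line the group mean. In the Furin panel the P635L Tnpo3 libraries lie between 0.1 and 0.221 and overlap WT Ctr, and in the Npr2 panel they lie between 0.183 and 0.231.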

How the data were processed

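Left ventricle RNA was sequenced with poly(A) selection and a directional kit, per the labels' protocols. The submitters' processing notes name GRCm39, STAR 2.7.9a, featureCounts 2.0.6 and DESeq2. The authors deposited 1 table of raw counts per gene. Their deposited comparison tables hold log2 fold changes and p-values from DESeq2, with WT Ctr in the numerator, so signs were turned here. Their deposited rMATS tables hold junction read counts, inclusion levels (used as a score from 0 to 1), inclusion differences and false discovery rates. Whether counting used strand is not given in the sources used here.

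Libraries held 28493249 to 85922669 counts. The test was edgeR 4.0.16 under R 4.3.3 (TMM, filterByExpr, robust quasi-likelihood fits). All 16 libraries and 1 mean per group entered, with 12 residual degrees of freedom, and p-values were two-sided and Benjamini-Hochberg adjusted over 18662 genes. DESeq2 1.42.0 was an alternative. SE is the log2 fold change divided by the root of its F. Within-library ratios used a pseudocount of 0.5 and an exact permutation test over 70 assignments. The test was checked on simulated counts with the same spread for all genes and groups and no outlying library. That check does not cover a group such as Nppa in P635L Tnpo3, where replicate 4 stood apart. Other alternatives changed scaling factors, the filter, the groups fitted, a replicate block, a Xist covariate and the libraries kept.

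The members, lists and rules were chosen with earlier results of these data known. Named are the 8 members, list genes called in a comparison (at most 6 each), tested neighbours within 100 kb, and the most alike genes (5 for Nppa and Nppb, 3 for others), of which 2 genes are not reported here. Symbols came from the splicing tables for 11276 genes and from a supplied table for 40786, and 4891 kept identifiers. Promoters are RefSeq windows on GRCm38.p6: 8 members had 9 windows.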

Additional observations from a re-analysis of the deposited data

Results flagged for a closer look

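In 40 groups of 4 libraries examined, 4 had a library whose gap to its nearest neighbour was large for the range of its group (0.850 to 1 of the range). How often such gaps arise by chance in values of this kind was not tested. Nppa in P635L Tnpo3 had its highest library, replicate 4, at 4506 CPM, against 916 to 1198 in the other 3. Nppb in P635L Ctr had its highest library, replicate 2, at 1501 CPM, against 888 to 974 in the others. Furin in WT Tnpo3 had its lowest library, replicate 3, at 62.8 CPM, against 87.8 to 92.2 in the others. Nppc in P635L Tnpo3 had its highest library at 0.0193 CPM, which is 1 count against 0 in the others.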

How the results depend on the processing

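Results for genes were recomputed under 26 alternatives, of which the fit of only the groups compared does not apply to the interaction. The differences of Nppa and Corin between P635L Ctr and WT Ctr and of Npr3 between P635L Tnpo3 and P635L Ctr kept their calls in all of them. Of the 7 genes tested, the number called between P635L Ctr and WT Ctr was 4, and 2 without the libraries rich in ENSMUSG00000119584. Between P635L Tnpo3 and P635L Ctr it was 2, and 1 without the filter on low counts. Between P635L Tnpo3 and WT Ctr it was 2, 4 with DESeq2, and 0 with only the 2 groups fitted or without the rich libraries. Between P635L Tnpo3 and WT Tnpo3 it was 3, and 1 with high Xist as a covariate or without the libraries with high Xist. For the interaction it was 0, and 1 without the filter, with DESeq2 or with the replicate block. Splicing events called between P635L Tnpo3 and WT Ctr went from 1 to 0 at an inclusion difference of 0.2. The cause of these changes was not tested.

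Leaving out 1 library at a time gave 2 to 4 genes between P635L Ctr and WT Ctr, 1 to 2 between P635L Tnpo3 and P635L Ctr, 1 to 3 between P635L Tnpo3 and WT Ctr, 1 to 3 between P635L Tnpo3 and WT Tnpo3, 0 to 0 between the WT groups and 0 to 2 for the interaction. The log2 Nppa to Nppb ratio ranged from 3.28 to 3.69 (P635L Ctr and WT Ctr), −2.08 to −1.58 (P635L Tnpo3 and P635L Ctr), 1.46 to 1.96 (P635L Tnpo3 and WT Ctr) and 0.30 to 0.70 (WT groups). For Npr3 to Npr1 the ranges were 0.28 to 0.60, −1.49 to −1.21, −1.07 to −0.74 and −0.27 to 0.0512, in the same order, the last with a turned sign without WT Ctr replicate 2. With 3 against 4 libraries the exact permutation test cannot go below 0.0571, so these ratio calls are lost by construction.

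Signs turned in differences that were not called. Without the libraries with high Xist, Npr1 between P635L Ctr and WT Ctr was 0.0300, Furin there 0.0202, and Furin between the WT groups −0.0182 (−0.0340 with high Xist as a covariate). Without the rich libraries Furin was 0.35 between P635L Ctr and WT Ctr and 0.11 between P635L Tnpo3 and WT Ctr. Npr3 between the WT groups was 0.0106 with median-ratio factors, 0.0093 with upper-quartile factors, 0.0197 without the filter and 0.0105 with DESeq2. Corin between P635L Tnpo3 and WT Tnpo3 was 0.0052 with upper-quartile factors and 0.13 with high Xist as a covariate. With 1 library left out, signs turned for Npr1 (−0.15 to 0.0387) and Furin (−0.18 to 0.14) between P635L Ctr and WT Ctr, and for Npr2 between P635L Tnpo3 and P635L Ctr (−0.0246 to 0.0701). Between the WT groups they turned for Nppa (−0.40 to 0.10), Npr2 (−0.0072 to 0.14), Npr3 (−0.11 to 0.11) and Furin (−0.0877 to 0.23). Against WT Tnpo3 they turned for Npr1 (−0.0067 to 0.11) and Corin (−0.16 to 0.10), and in the interaction for Npr2 (−0.11 to 0.0349).

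Whether replicate numbers pair the samples is not given in the sources used here, and by the median no pairing was seen. Same-numbered libraries had a median correlation of −0.063 in their deviations from group means (range −0.34 to 0.65, 24 pairs) against 0.029 (−0.44 to 0.40, 72 pairs) for others. With the replicate block Npr3 was called in the interaction (edgeR adjusted p = 0.0426), and the block changed no other call among the 7 genes. Over all genes, DESeq2 called 1388 between P635L Tnpo3 and P635L Ctr where edgeR called 724, and 1135 against 573 between P635L Tnpo3 and WT Ctr. Of the latter 573, 278 were higher, and with upper-quartile factors 350 of 596. With only the 2 groups fitted, edgeR called 2846 of 17930 genes between P635L Tnpo3 and P635L Ctr. Nppc, with 24 reads in all, is limited by depth.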
